A study of Mus musculus with 2 samples.

Results

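Conventional type 1 dendritic cells (cDC1) of visceral adipose tissue (VAT) numbered 1977 among the 25198 CD45+ cells that passed the filters, 1143 of 12474 cells in mice on normal water (NW) and 834 of 12724 in mice given antibiotics (ABX). The cells were selected on their own UMI values (a UMI is a molecular identifier that marks 1 captured RNA molecule). A member had at least 2 UMIs of Xcr1 and Clec9a together, fewer than 10 of the complement genes C1qa, C1qb and C1qc, at most 1 of Fscn1, 0 of Cd3e and Cd3d and at most 1 of Cd79a, which set the cells apart from macrophages, mature dendritic cells, T cells and B cells. Cells were kept at 500 or more gene UMIs, 200 or more genes and at most 25% mitochondrial UMIs.

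Both libraries came from the epididymal VAT of C57BL/6 wildtype mice at 15 weeks of age, housed specific pathogen-free and male per the study's methods. The NW mice drank plain water and the ABX mice drank water with ampicillin, vancomycin, streptomycin and colistin, a mixture used to deplete gut bacteria. Leukocytes were enriched with CD45 magnetic beads after enzymatic digestion of the tissue at warm temperature, and were profiled on the BD Rhapsody platform together with oligonucleotide-tagged antibodies. The comparison addresses how immune cells of VAT differ when the gut microbiota is depleted. There was 1 library per condition, and how many mice stand behind each is not given in the sources used here, so there is no test of any difference. All intervals are 95% intervals that cover counting error only, and the condition and the library cannot be told apart.

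Dendritic cells take up antigen and display it to T cells. Type 1 dendritic cells depend on the transcription factors Irf8 and Batf3 and are known for cross-presentation, in which antigen from dead cells, taken up with the help of the lectin Clec9a, is loaded on MHC class I for CD8 T cells. Their receptor Xcr1 binds a chemokine that activated CD8 T cells and NK cells release, and in adipose tissue they live beside type 2 dendritic cells and a large macrophage population.

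The libraries held 79855126 gene UMIs in NW and 64801767 in ABX, with a median of 5092 and 3846 gene UMIs per cell that passed the filters. The members were richer in RNA and nearly even between libraries, with a median of 8769 gene UMIs (1145 to 23028) in NW and 8074 (575 to 29291) in ABX. The median number of genes was 2750 and 2620. Their median mitochondrial share was 4.55% in NW and 4.96% in ABX. The 2 files shared 196 cell indexes among cells that passed the filters and 0 among the members. Macrophage RNA outside macrophages was higher in NW: T cells, which do not make C1qb and were themselves limited to fewer than 10 C1q UMIs, held 0.778 C1qb UMIs per cell in NW and 0.441 in ABX.

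The members carried the other genes known for cDC1. Xcr1 (chr9:123852315-123862029 on GRCm38) and Clec9a (chr6:129408862-129424763) were used for the choice and are given as a description. The median member held 3 Xcr1 UMIs in each library and 4 Clec9a UMIs in each, and both genes were detected in 968 of the 1143 NW members (84.7%) and in 712 of the 834 ABX members (85.4%). Irf8, the transcription factor of the lineage, was detected in 94.2% (NW) and 94.5% (ABX) of members, against 18.6% and 16.3% of type 2 dendritic cells, although 61.2% and 54% of macrophages also held it. Naaa, a lysosomal amidase and a common cDC1 marker, was found in 96.9% and 97.4% of members and in 43% and 35.9% of type 2 dendritic cells. Cadm1, an adhesion molecule, was found in 80.6% and 87.4% of members against 5.15% and 6.7% of type 2 dendritic cells. Tlr3, a receptor for double-stranded RNA, was found in 79% and 73.4% of members against 1.72% and 3.35%. T cells of the same libraries serve as a background, in which free RNA and any expression of their own are not told apart. In T cells Irf8 was at 12.2% and 8.42%, Naaa at 11.2% and 7.13% and Tlr3 at 1.01% and 1.37%. Irf8 was also found in 51.5% and 59.2% of B cells. The label matched these markers in both libraries.

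**Figure D1:**
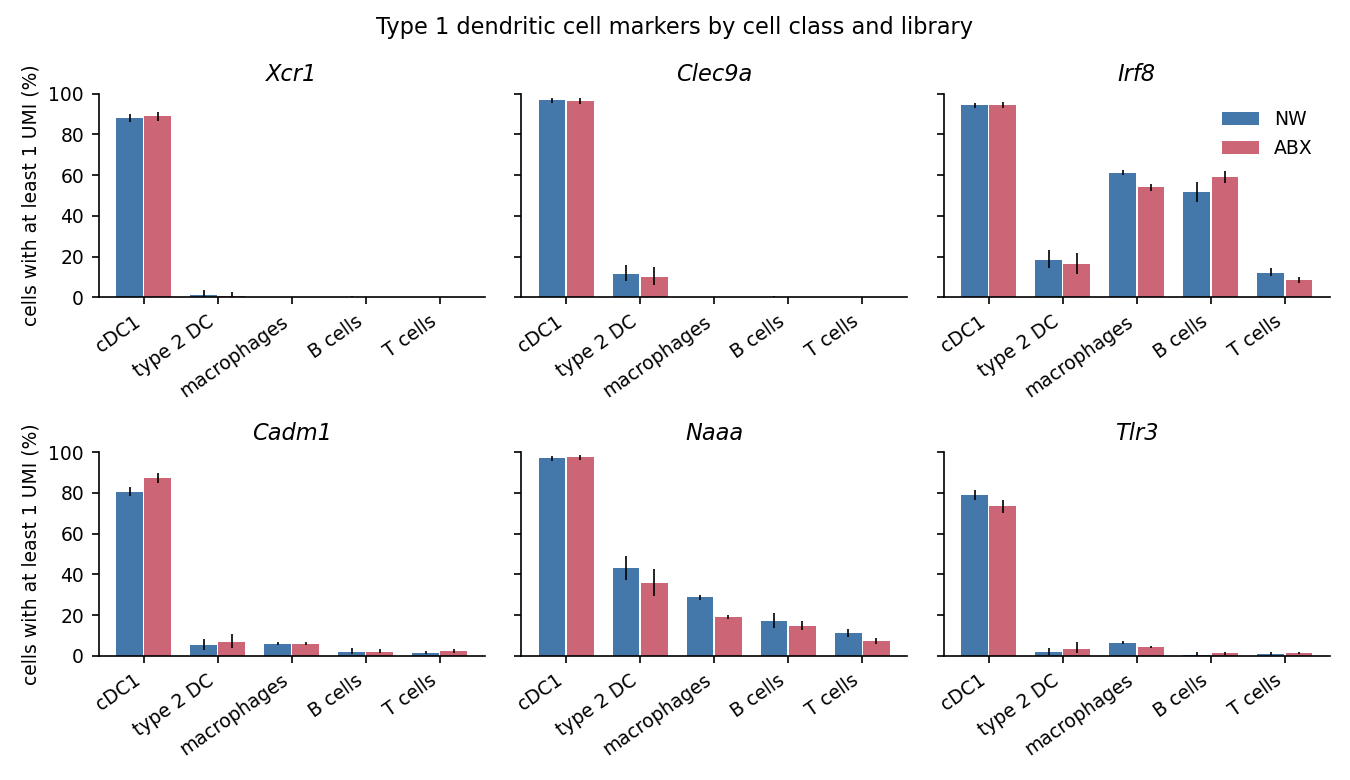
Percent of cells with at least 1 UMI of each of the 6 cDC1 markers (y axis) in cDC1, type 2 dendritic cells, macrophages, B cells and T cells, by library, with exact 95% binomial intervals as bars; Xcr1 and Clec9a chose the cDC1. Irf8, Cadm1, Naaa and Tlr3 were found in 73.4% to 97.4% of cDC1 in both libraries, and their levels in the other classes were lower.

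The edge of the selection was gradual. Cells with 2 UMIs of Xcr1 and Clec9a, just inside the limit, numbered 86 in NW and 75 in ABX and held Irf8 at 1004 and 1027 CPM (UMIs per 1000000 summed gene UMIs) and Tlr3 at 171 and 190 CPM. Cells with 1 UMI, just outside it, numbered 185 and 174 and held Irf8 at 400 and 473 CPM and Tlr3 at 74.3 and 45.8 CPM. At 16 or more UMIs, Irf8 reached 1922 CPM in NW and 1746 CPM in ABX. Cd209a, a lectin of type 2 dendritic cells, went the other way, from 487 CPM at 1 UMI to 186 at 2 and 6.83 at 16 or more in NW, and from 274 to 79.2 and 2.43 in ABX. Type 2 genes were thus still seen among the cells just inside. The limits on other lineages left out 283 NW and 213 ABX cells that had enough Xcr1 and Clec9a, 113 and 52 of them by the C1q limit and 170 and 158 by a T cell gene.

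**Figure D2:**
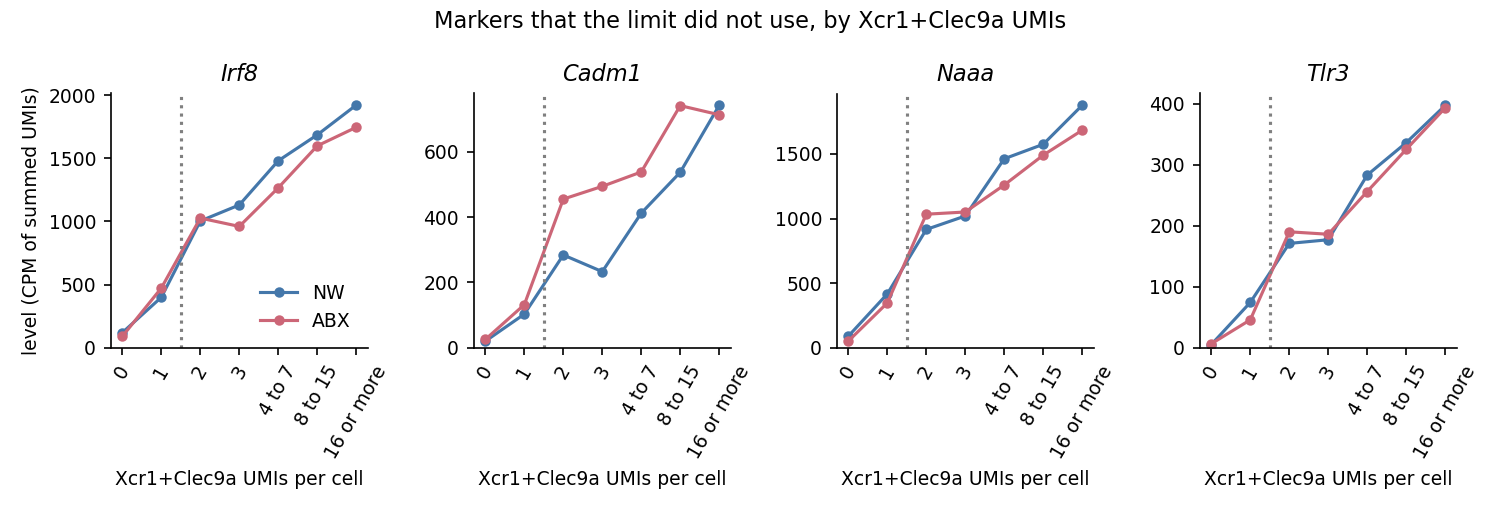
Level (CPM of summed UMIs, linear y axes) of 4 cDC1 markers in cells grouped by their UMIs of Xcr1 and Clec9a (x axis, 0 to 16 or more), by library, with the limit of 2 as a dotted line. Irf8 rose from 120 CPM at 0 UMIs to 1922 CPM at 16 or more in NW, and from 91 to 1746 CPM in ABX.

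The members formed 9.16% of the cells in NW (exact interval 8.66 to 9.68%) and 6.55% in ABX (6.13 to 7%), a ratio of 0.716 (0.656 to 0.78). The size of the difference depended on the cells it was set against. B cells were at 3.39% in NW and at 8.3% in ABX, and among the cells other than B cells the cDC1 were at 9.48% and 7.15%. Among dendritic cells and macrophages they were at 16.9% and 15.5%. Among the dendritic cells by rule, 1572 in NW and 1096 in ABX, they formed 72.7% (70.4 to 74.9%) and 76.1% (73.5 to 78.6%). Mature dendritic cells, which express Fscn1 with Ccl22 or Ccr7, were 138 of the NW and 53 of the ABX cells, 8.78% and 4.84% of dendritic cells.

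The C1q limit decided the direction of the share among all cells. With fewer than 4 C1q UMIs allowed in place of fewer than 10, the members were 626 in NW (5.02%) and 675 in ABX (5.3%), and the higher share in NW was gone. C1q UMIs from 5 to 9 were found in 336 NW members (29.4%) and 85 ABX members (10.2%), and the median member held 3 and 2. C1qb was also more abundant in the T cells of NW, and the part of free macrophage RNA in the share was not tested.

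The genes that set the cDC1 apart from type 2 dendritic cells, their nearest class, gave large ratios in both libraries. A530099J19Rik, a transcript named only by its clone, was higher in cDC1 by 6.54 on the log2 scale in NW (interval 5.73 to 7.49) and by 6.16 in ABX (5.28 to 7.22). Gcsam, a germinal centre signalling adaptor, was higher by 7.67 (5.81 to 10.72) and 7.14 (5.29 to 10.19), on 2 UMIs in type 2 dendritic cells of each library. Itgae, which encodes the CD103 integrin chain that binds E-cadherin, was higher by 5.61 (4.38 to 7.23) and 7.03 (4.55 to 12.34). These intervals overlap between the libraries. Tlr3 followed with 6.53 and 5.19 and Cadm1 with 5.22 and 5.02. Snx22, a sorting nexin, was higher by 4.97 in NW, and in ABX, with 0 UMIs in type 2 dendritic cells, by at least 5.43 when set against 3 counts. The 20 genes also included the receptor genes Fzd1 (5.84 and 6.22) and Notch4 (5.08 and 4.56), the actin-binding Dbn1 (4.73 and 4.72), the cation channel gene Trpm2 (4.30 and 4.47), Rab7b (4.42 and 5.49) and the DNase gene Dnase1l3 (4.45 and 4.33). Not every one was low in macrophages. Against these, Rab7b differed by 0.69 and 0.55 on the log2 scale and Dnase1l3 by 0.43 and 0.41, while Itgae differed by 6.65 and 6.73.

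Gene levels were compared between conditions as UMIs summed over the members of a library and scaled to CPM, and a gene was counted as higher or lower past a ratio of 1.5. Among the 7516 genes whose UMIs summed to 200 or more, 31 (0.412%) were higher and 74 (0.985%) lower in ABX, 1.4% in either direction, and the median log2 ratio was 0.00. Summed UMIs of the members were 10187723 in NW and 6861458 in ABX, and Pearson's r between the log2 CPM of both libraries was 0.992 across genes, which are not independent replicates. Some of these genes, like many of all genes counted, were not clearly the cells' own. In 7 of the 31 and 29 of the 74, T cells and B cells of both libraries held at least 50% of the UMIs per cell of the members. This level need not be free RNA alone. T cells held 4.12 and 3.83 UMIs of Thy1 per cell, and B cells 2.95 and 2.99 of Cybb. The other 24 and 45 stood above that level. Of all 7516 genes, 4225 stood above it, and the 24 and 45 were 0.568% and 1.07% of these.

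**Figure D3:**
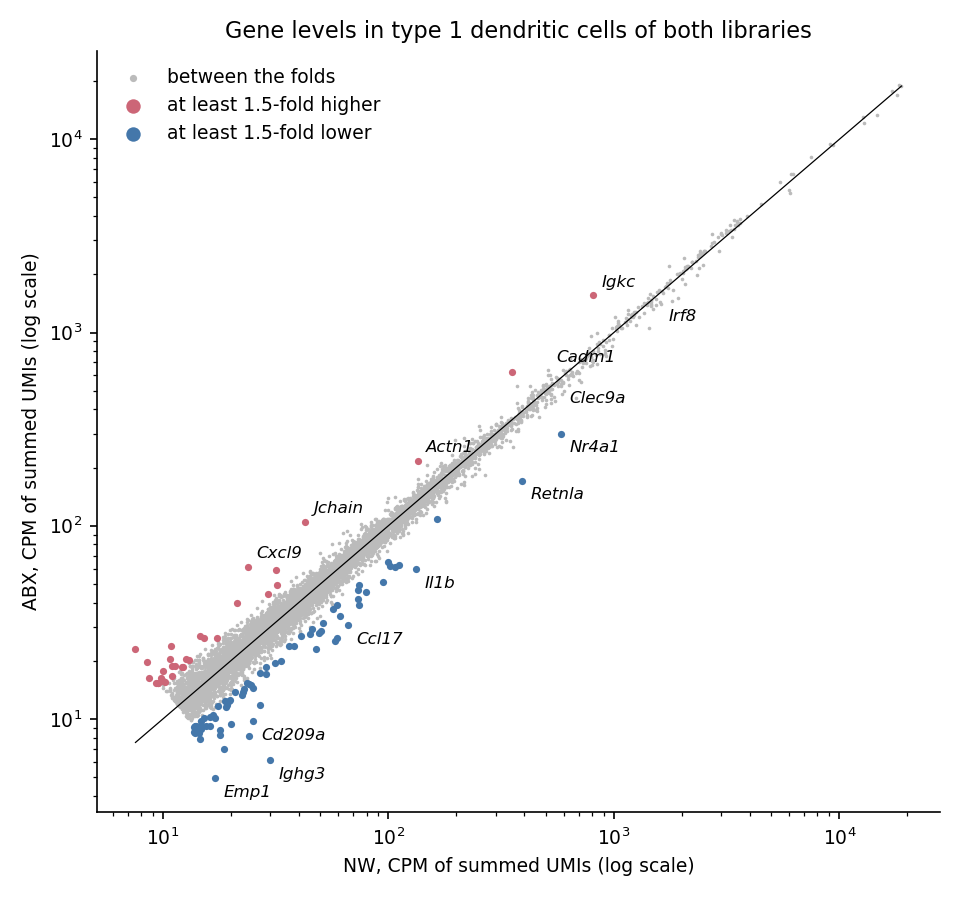
CPM of each of 7516 genes in cDC1 of NW (x axis, log scale) and ABX (y axis, log scale), with genes at least 1.5-fold higher or lower in ABX in colour and the line of equal levels in black. The genes lie close to the line, with 31 above and 74 below the fold, among them Cxcl9 above and Nr4a1, Il1b and Ccl17 below.

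Genes of cDC1 identity stayed between the folds. Xcr1 and Clec9a, at -0.01 and -0.10 on the log2 scale, were used by the selection and are not counted. The other 4 markers were at -0.16 for Irf8 (1606 CPM in NW and 1436 in ABX), -0.15 for Naaa, -0.10 for Tlr3 and 0.33 for Cadm1, all under the fold, where 98.6% of all genes lay too. Cadm1 was at 509 CPM in NW and 640 in ABX, with an interval of the log2 ratio from 0.27 to 0.39 that does not include 0, and T cells differed by 0.70 (0.01 to 1.40) and macrophages by 0.37 (0.19 to 0.56) at much lower levels. Among 20 further cDC1 genes with enough UMIs 0 passed the fold in either direction, with a median of 0.00 and a range of -0.24 to 0.29. Batf3, the partner of Irf8 in keeping the lineage, was at 148 and 134 CPM. Wdfy4, required for cross-presentation of cell-bound antigen, was at 717 and 715 CPM. Itgae was at 139 and 118 CPM, in 41.2% and 39.8% of the members.

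Of 20 transcriptional regulators of dendritic cells 0 were higher and 2 lower in ABX, beside 0.985% of all genes lower, with a median of -0.08. Id2, an inhibitor of helix-loop-helix factors needed for the lineage, was at 1225 CPM in NW and 1238 in ABX, and Zbtb46, which marks conventional dendritic cells, was at 116 and 108. Zeb2, a repressor that cDC1 lose as they form, had 293 UMIs in NW and 117 in ABX, a log2 ratio of -0.75 (-1.08 to -0.44). T cells held 0.278 and 0.149 Zeb2 UMIs per cell against 0.256 and 0.14 in cDC1, so the gene lay at the level of cells of another kind. Nfil3, a factor upstream of the lineage, had 141 and 62 UMIs, a log2 ratio of -0.62 (-1.07 to -0.17) that passed the fold in 8 of 11 alternatives. Irf1, a factor induced by interferon, was at 56.4 CPM in NW and 80.3 in ABX, a log2 ratio of 0.51 (0.34 to 0.68) just under the fold. Among 21 growth factor and cytokine receptor genes 0 passed it, with a median of -0.03, and Flt3, the receptor on which dendritic cell numbers depend, differed by -0.08.

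Genes of antigen presentation had medians near that of all genes. Of 14 MHC class II genes 0 were higher and 0 lower, beside 1.4% of all genes past the fold, with a median of -0.03. The class II chains H2-Aa, H2-Ab1 and H2-Eb1 were at 12729, 12857 and 9365 CPM in NW and at 13092, 12154 and 9374 CPM in ABX, and the invariant chain Cd74 was at 18449 and 19013. The list took a median of 5.67% of a member's UMIs in NW and 5.76% in ABX. Its lowest log2 ratios belonged to the lysosomal proteases Ctsl (-0.56) and Lgmn (-0.42), both under the fold. In the list of 32 cross-presentation and MHC class I genes 0 were higher and 1 lower, with a median of -0.01. B2m differed by 0.03 and the peptide transporter Tap1 by -0.02. The 1 lower gene was Cybb, the catalytic subunit of the phagocyte NADPH oxidase. Its 592 UMIs in NW stood against 173 in ABX, a log2 ratio of -1.20 (-1.46 to -0.96). Cybb was far more abundant per cell in macrophages (4.42 and 3.83 UMIs) than in cDC1 (0.518 and 0.207), and T cells held 0.285 and 0.199.

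Sensing and uptake receptors had medians close to 0 as well. Of 20 sensing genes 0 were higher and 1, the lipopolysaccharide co-receptor Cd14, was lower (240 and 105 UMIs, log2 ratio -0.62, interval -0.97 to -0.29), beside 1.4% of all genes in either direction, with a median of 0.02. Cd14 passed the fold in 11 of 15 alternatives and was at -0.19 with no limit on C1q. Tlr11, which recognizes profilin of protozoa, was at 136 CPM in NW and 158 in ABX, and the DNA sensor Aim2 at 164 and 197, a log2 ratio of 0.27 (0.16 to 0.37). Of 17 uptake and lectin receptors 0 were higher and 2, Cd209a and Mrc1, were lower, with a median of -0.06. Both are genes of other myeloid cells. Timd4, a receptor for phosphatidylserine on dying cells, was at 99 CPM in NW and 133 in ABX, a log2 ratio of 0.42 (0.29 to 0.56).

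Among the lists of cDC1 functions, that of immediate early and stress genes lay furthest from 0. These are genes which cells switch on within minutes of a stimulus and which warm enzymatic digestion is known to induce. Of 39 such genes with enough UMIs, 39 had a log2 ratio below 0, 6 were lower past the fold (Nr4a1, Nr4a2, Egr3, Atf3, Hsph1 and Cxcl2) and 0 were higher, beside 0.985% of all genes lower. The median was -0.31, beside 0.00 over all genes. Cxcl2 passed the fold in 10 of 15 alternatives. Nr4a1 (chr15:101254269-101274795), a nuclear receptor induced by activation, was at 584 CPM in NW and 300 in ABX, a log2 ratio of -0.96 (-1.03 to -0.89), and T cells held 1.68 and 0.495 UMIs per cell against 5.2 and 2.47 in cDC1. Its relative Nr4a2 was at 59.4 and 26.2 CPM, a log2 ratio of -1.18 (-1.43 to -0.94). The zinc finger factor Egr3 was at 61.3 and 34 CPM (-0.85, interval -1.08 to -0.63), and Egr1 at 269 and 182 CPM (-0.56). Fos, a subunit of the AP-1 factor, was at 1811 and 1455 CPM, a log2 ratio of -0.32, and the chaperone gene Hspa1a at 2067 and 1789 CPM, a ratio of -0.21. Myc was at -0.01. Hsph1, a chaperone, was at the level of other cells, with 0.508 and 0.303 UMIs per cDC1 and 0.541 and 0.401 per T cell.

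The list summed to 23259 CPM in cDC1 of NW and 19666 in ABX, a log2 ratio of -0.24 (-0.25 to -0.23). The same sum was also lower in ABX in type 2 dendritic cells (-0.34) and T cells (-0.42), and less so in mature dendritic cells (-0.13), B cells (-0.12) and macrophages (-0.05). Single genes did not follow 1 pattern over the classes. Nr4a1 was lower in each of the 6, from -1.62 in T cells to -0.20 in macrophages, whereas Egr3 was at -0.82 in macrophages, 0.53 in B cells and 0.44 in T cells. Nr4a2 was higher in type 2 dendritic cells of ABX (1.25, interval 0.38 to 2.14, on 20 and 30 UMIs) and lower in T cells (-1.32). The part of the tissue digestion in these values was not tested.

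**Figure D4:**
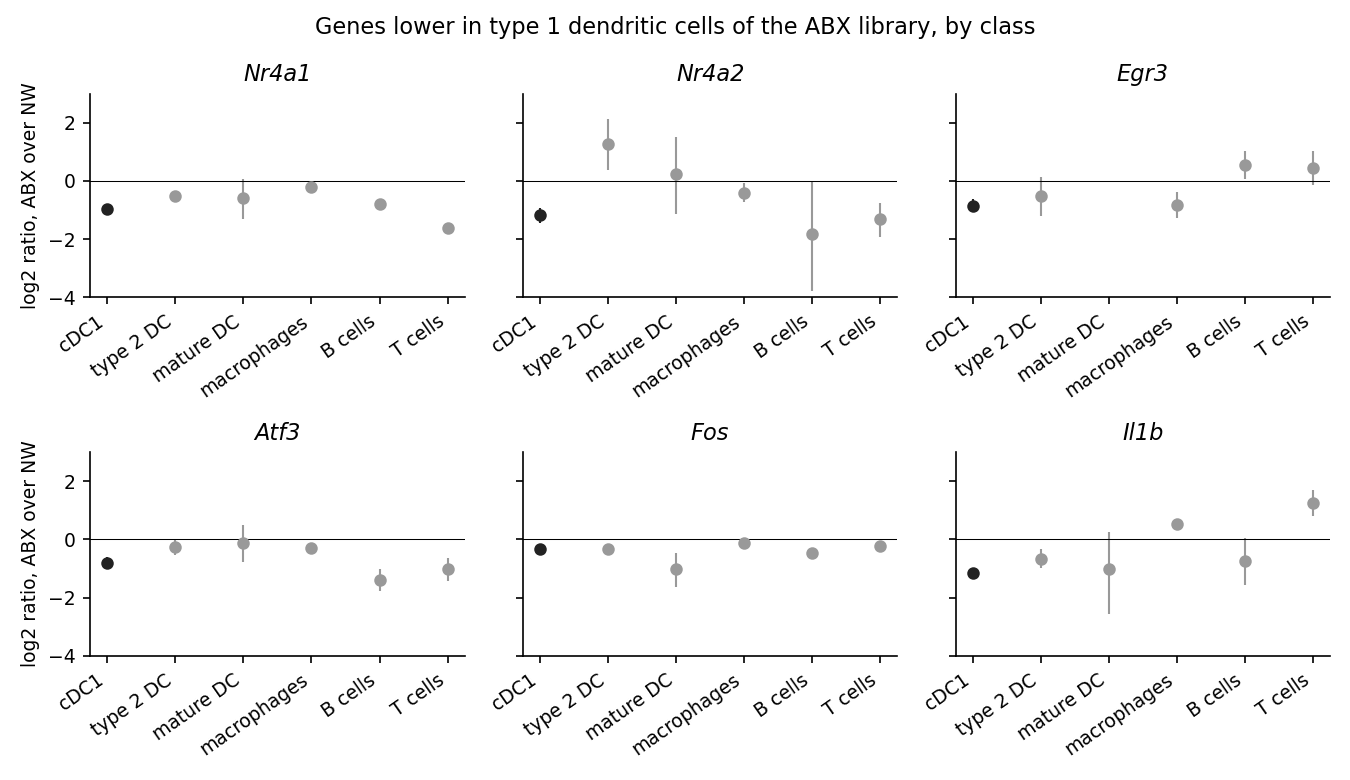
Log2 ratio of CPM, ABX over NW (y axis), of 6 genes in 6 classes of cells, with 95% counting intervals as bars, cDC1 in black and other classes in grey; a class with 0 UMIs in a library has no point. Nr4a1 is below 0 in all 6 classes, and Il1b is at -1.16 in cDC1 but at 0.53 in macrophages.

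Promoter windows of this group are shown because its 39 genes with enough UMIs all had log2 ratios below 0 in cDC1. They are the 250 bases upstream of the start, 5′ to 3′, from RefSeq on GRCm38.p6, with capitals marking the cyclic AMP response element TGACGTCA and the NF-kB motif (GGGA, any 4 bases, CC), searched on both strands. The half-site TGACGT, which lies within the first of these, the ISRE core (GAAA, any 2 bases, GAAA), GAS (TTC, any 3 bases, GAA), AP-1 (TGA, any base, TCA) and the EICE (GGAA, any 2 bases, GAAA) were searched too. Of 33 listed genes with a window, 3 (Btg2, Dusp1 and Nfkbid) held TGACGTCA, 9.09% beside 1.77% of 27025 genes, and 14 held the NF-kB motif, 42.4% beside 19.7%. The half-site was in 9, 27.3% beside 7.29%. The genes with TGACGTCA were all under the fold, Btg2 at -0.30, Dusp1 at -0.31 and Nfkbid at -0.24 on the log2 scale. Among the genes lower past the fold, only Atf3 held the half-site, and only Atf3 and Cxcl2 held the NF-kB motif. The remaining motifs were no more frequent than among all genes. The ISRE core was in 3.03% beside 3.46% and GAS in 6.06% beside 8.13%. AP-1 was in 3.03% beside 7.82% and the EICE in 0% beside 2.68%. A match is a description, not a site or a cause. The window of Nr4a1 held none of the motifs, while Dusp1 held TGACGTCA at position -143 and Btg2 at -166, counted from the start.
Nr4a1 (chr15:101266596-101266845, plus strand): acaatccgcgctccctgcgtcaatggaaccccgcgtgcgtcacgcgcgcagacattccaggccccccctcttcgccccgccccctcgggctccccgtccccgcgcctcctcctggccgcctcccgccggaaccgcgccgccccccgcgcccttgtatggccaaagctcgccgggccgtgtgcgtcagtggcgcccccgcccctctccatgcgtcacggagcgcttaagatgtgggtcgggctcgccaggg
Dusp1 (chr17:26508473-26508722, minus strand): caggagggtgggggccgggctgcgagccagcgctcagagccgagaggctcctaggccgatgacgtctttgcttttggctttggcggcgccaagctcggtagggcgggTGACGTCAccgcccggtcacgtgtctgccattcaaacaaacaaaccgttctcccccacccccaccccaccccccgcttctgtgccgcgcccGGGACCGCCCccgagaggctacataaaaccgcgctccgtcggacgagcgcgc
Btg2 (chr1:134079156-134079405, minus strand): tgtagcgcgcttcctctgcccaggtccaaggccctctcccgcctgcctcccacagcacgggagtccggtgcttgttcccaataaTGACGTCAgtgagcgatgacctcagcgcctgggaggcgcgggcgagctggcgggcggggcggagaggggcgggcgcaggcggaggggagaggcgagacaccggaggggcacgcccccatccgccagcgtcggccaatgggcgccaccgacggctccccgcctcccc

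The inflammatory cytokine Il1b was lower in the same library. Il1b (chr2:129364570-129371139) had 1360 UMIs in NW and 410 in ABX, a log2 ratio of -1.16 (-1.32 to -1.0), and a UMI in 253 NW members (22.1%) and 86 ABX members (10.3%). T cells held 0.0476 and 0.102 UMIs per cell and cDC1 1.19 and 0.492, so the gene stood above free RNA. With each cell thinned to 1000 UMIs the share with Il1b was 8.04% and 3.71%, and that with Nr4a1 31.2% and 17.3%. Macrophages went the other way in CPM, at 0.53 (0.45 to 0.61), with 0.526 and 0.574 Il1b UMIs per cell. A UMI was found in 7.92% and 7.2% of macrophages, and in 3.72% and 4.12% after thinning. Type 2 dendritic cells were at -0.66 (-0.98 to -0.34). Nr4a1 had a UMI in 819 NW members (71.7%) and 372 ABX members (44.6%).

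Il1b, Nr4a2 and Egr3 were at higher levels in the members with the most Nr4a1, and were found in the other members too. Members with at least 10 Nr4a1 UMIs, a limit set after the values were seen, numbered 209 of 1143 in NW (18.3%, interval 16.1 to 20.7%) and 74 of 834 in ABX (8.87%, 7.03 to 11%). In NW, Il1b was at 406 CPM in these cells and 56.8 CPM in the others, Nr4a2 at 210 and 17.1 and Egr3 at 206 and 20.8. In ABX the same genes were at 276 and 33.6, at 145 and 11.9 and at 149 and 20.1 CPM. Tnf, another early cytokine, was at 46.9 and 6.41 CPM in NW and at 55.6 and 10.9 in ABX. Within the high cells Nr4a1, by which they were taken, stood at 1815 CPM in NW and 1729 in ABX. They carried more UMIs than the others, a median of 10450 against 8440 in NW and of 9974 against 7943 in ABX. They held Xcr1, which the selection used, at 528 CPM against 440 in NW and 529 against 448 in ABX, and Batf3 at 112 against 158 and at 104 against 138. Members with at least 5 Il1b UMIs numbered 98 in NW (8.57%) and 34 in ABX (4.08%).

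Other cytokines and chemokines were few. Of 19 with enough UMIs 1 was higher (Cxcl9) and 3 lower (Il1b, Ccl17 and Cxcl2), with a median of -0.11. Beside these, 0.412% of all genes were higher and 0.985% lower. Il12b, the cytokine subunit for which cDC1 are known on activation, had 7 UMIs in NW and 9 in ABX, too few to compare. Tnf differed by 0.04, Il15 by 0.07, Ebi3 by 0.12 and Tgfb1 by 0.32. Ccl17, a chemokine for Ccr4+ T cells, had 671 UMIs in NW and 210 in ABX, a log2 ratio of -1.11 (-1.34 to -0.88). The share of members with a UMI was nearly the same, 131 in NW (11.5%) and 92 in ABX (11%). The 10 cells richest in Ccl17 held 55.4% and 45.7% of its UMIs. In type 2 dendritic cells Ccl17 was higher in ABX, at 1.01 (0.69 to 1.34). Members with at least 5 Ccl17 UMIs, a limit also set after the values were seen, like those on Cxcl9, Il1b and Itgae, numbered 24 in NW and 11 in ABX. They held Ccl22 at 328 CPM in NW and 608 in ABX, against 14.4 and 7.41 in the others, and Itgae at 435 and 236 CPM, against 131 and 116.

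Cxcl9 (chr5:92321347-92328079), a chemokine induced by interferon gamma that attracts Cxcr3+ T cells, was higher in ABX, and its UMIs came from a small number of cells. It had 242 UMIs in NW and 421 in ABX, a log2 ratio of 1.37 (1.14 to 1.60). These UMIs lay in 23 NW members (2.01%) and 22 ABX members (2.64%), and the 10 richest cells held 93.4% and 96.4% of them, with 88 and 200 in the highest cell. Without the highest cell of each library the log2 ratio was 1.09, and without the 10 richest it was 0.48, under the fold. The share of members with at least 5 Cxcl9 UMIs was 8 of 1143 (0.7%, interval 0.303 to 1.37%) and 6 of 834 (0.719%, 0.264 to 1.56%), so the number of cells with it was not distinguishable at this depth. T cells held 0.00156 and 0.00228 Cxcl9 UMIs per cell. The few high cells carried other interferon-induced genes in both libraries: Gbp2, a guanylate-binding protein, was at 262 CPM in them and 4.26 in the others in NW, and at 1565 and 2.94 in ABX. Irf1 was at 313 and 53.9 CPM in NW and at 1076 and 71.3 in ABX. Cxcl10 was at 80.7 and 1.69 and at 1190 and 2.06. These levels are sums over 8 and 6 cells, so 1 cell can carry most of a value. Of all Cxcl10 UMIs of the members, the highest cell held 8 of 25 in NW and 69 of 87 in ABX. The cells with at least 5 Cxcl9 UMIs held 0 Il12b UMIs. The window upstream of Cxcl9 is shown because the gene had the highest ratio outside the immunoglobulin genes. It held 1 match to the NF-kB motif at position -130, in capitals and read on the other strand, and the motif is found in 17.6% of 32851 windows.
Cxcl9 (chr5:92328080-92328329, minus strand): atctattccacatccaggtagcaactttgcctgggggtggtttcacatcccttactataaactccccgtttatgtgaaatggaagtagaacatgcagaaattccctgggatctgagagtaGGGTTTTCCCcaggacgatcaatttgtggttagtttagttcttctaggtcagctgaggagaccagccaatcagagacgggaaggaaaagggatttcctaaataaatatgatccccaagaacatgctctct

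Over the whole population, of 23 interferon-stimulated genes 1 (Cxcl9) was higher and 0 lower, beside 1.4% of all genes in either direction. The median was 0.03. Ly6e differed by 0.18, Irf7 by -0.35 and Isg20 by -0.41. Ifi47 and Ly6a differed by 0.55 and 0.51, under the fold. Gbp2 and Iigp1 had too few UMIs to enter, 69 and 18 in NW and 116 and 56 in ABX.

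Maturation and migration genes mostly stayed between the folds. Of 16 maturation and co-stimulation genes 0 were higher and 0 lower, beside 1.4% of all genes in either direction, with a median of -0.05. Fscn1 was limited by the selection. Cd86, a co-stimulatory ligand, differed by 0.10, Cd83 by -0.38 (236 CPM in NW and 181 in ABX) and Socs2 by 0.54. Of 20 genes for chemokine receptors and migration 0 were higher and 1 lower, beside 0.985% of all genes lower. Their median was -0.15, and 19 of 20 were below 0. The lower one was Itgam, the CD11b chain, with 521 UMIs in NW and 214 in ABX (-0.71, interval -0.95 to -0.48), and it is a gene of macrophages and type 2 dendritic cells. Ccr2, which guides cells from blood to tissue, was at 923 CPM in NW and 759 in ABX, a log2 ratio of -0.28 (-0.33 to -0.23). Ccr7, the receptor for migration to lymph nodes, had 93 and 65 UMIs. Among 11 genes that restrain or shape T cells 0 were higher and 1, the galectin Lgals1, was lower (1094 and 420 UMIs, -0.81), again beside 0.985% of all genes. T cells held 2.03 and 1.15 Lgals1 UMIs per cell, above the 0.957 and 0.504 of the cDC1.

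Lists that bear on the study's question, lipid handling and the sensing of microbial products, had few genes past the fold, as did all genes with 1.4%. Of 27 lipid genes, which include PPAR targets, 0 were higher and 1, the lipase Lpl, was lower (165 and 63 UMIs, -0.82, interval -1.26 to -0.39), with a median of -0.04. The direction of Lpl turned, to 2.0, when cells with 1 UMI of Xcr1 and Clec9a were taken in. Pparg itself was at 11.8 CPM in NW and 12.5 in ABX, and the lipid scavenger receptor Cd36 at 468 and 467. Of 16 receptors and enzymes for microbial products 0 passed the fold, with a median of -0.06. Gpr35 was at 132 CPM in NW and 127 in ABX, and Ahr, the receptor for indoles and other aryl compounds, differed by -0.49. Ffar2 and Hcar2, receptors for short-chain fatty acids, were hardly detected, with 16 and 9 UMIs and with 0 in each library. Of 26 energy metabolism genes 0 passed the fold, with a median of -0.10.

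**Figure D5:**
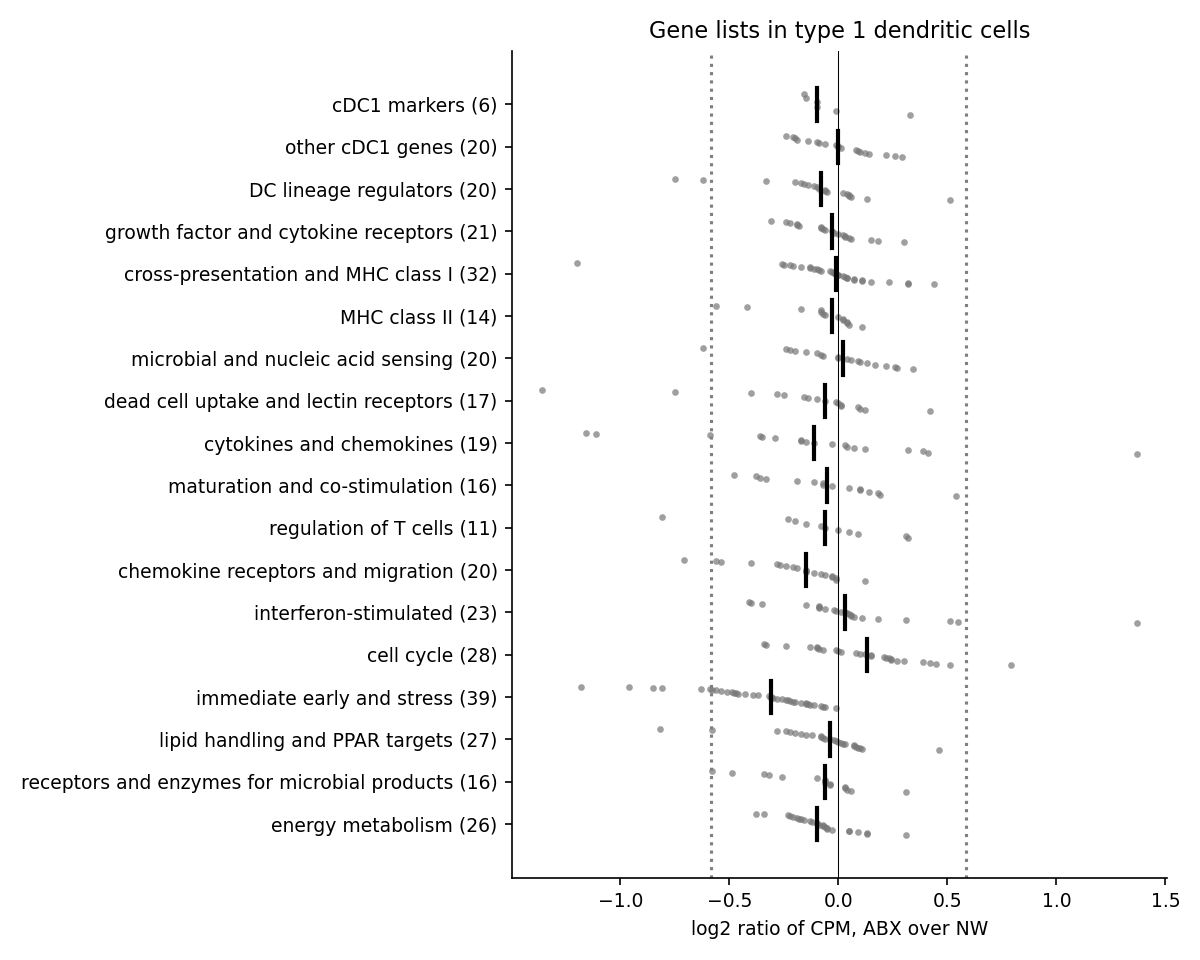
Log2 ratio of CPM in cDC1, ABX over NW (x axis), of each gene with at least 200 UMIs (points) in 18 lists (rows, number of genes in parentheses), with the median of each list as a black bar and the 1.5-fold limits as dotted lines. The immediate early and stress list lies wholly below 0 with a median of -0.31, and the MHC class II list has a median of -0.03.

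A minority of the cells expressed genes of division. Members with at least 3 UMIs over 9 cell cycle genes were 120 of 1143 in NW (10.5%, interval 8.78 to 12.4%) and 77 of 834 in ABX (9.23%, 7.35 to 11.4%), and 83 and 39 members lay near the limit with 2 or 3 UMIs. With cells thinned to 1000 UMIs the shares were 4.08% and 4.46%. Type 2 dendritic cells were at 7.9% and 10%, macrophages at 2.73% and 1.45%, and mature dendritic cells at 0 of 138 and 2 of 53. Of 28 cell cycle genes 1, the ribonucleotide reductase subunit Rrm2, was higher (155 and 180 UMIs, 0.79, interval 0.47 to 1.11), beside 0.412% of all genes. The median of the list was 0.13, and the proliferation marker Mki67 differed by 0.39 (0.26 to 0.52). The list's median was -0.02 when each cell had equal weight and -0.19 without cells above the 98th percentile of UMIs, so its sign changed with the treatment of the cells. The dividing members had lower levels of these cDC1 genes in both libraries: Cadm1 at 390 CPM against 526 in NW and 372 against 679 in ABX, and Irf8 at 1309 against 1648 and 1063 against 1491. Cd74 was at 15655 against 18846 CPM in NW and 14627 against 19653 in ABX.

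Members with Itgae, the CD103 chain, differed little in share between libraries and had more Xcr1 and Cadm1 than the others. In NW 471 members (41.2%) held an Itgae UMI, and in ABX 332 (39.8%). Xcr1, which the selection used, was at 506 CPM in these and 416 in the others in NW, and at 521 and 405 in ABX. Cadm1, not used by it, was at 579 and 446 CPM in NW and at 766 and 539 in ABX. Ccl17 was at 118 and 19.2 CPM in NW and at 43 and 20.7 in ABX.

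Several of the largest ratios were in genes of other cells. Among the 10 highest were the antibody genes Iglc2 (77 UMIs in NW and 158 in ABX, 1.61), Jchain (436 and 723, 1.30), Iglc1 (111 and 163, 1.12) and Igkc (8220 and 10686, 0.95). Single cells held many of these UMIs: the highest ABX member had 312 Jchain and 3142 Igkc UMIs, the highest NW member 11 and 327. Without the highest cell of each library the log2 ratio of Igkc was 0.51 and that of Jchain 0.52, both under the fold. In T cells the mean of Igkc was lower in ABX, at 5.81 UMIs per cell in NW and 5.11 in ABX. Jchain was lower there too, at 0.531 and 0.256, while Iglc2 (0.0468 and 0.0918) and Iglc1 (0.0616 and 0.0857) were higher. The share of T cells with an Igkc UMI was higher in ABX, at 92% and 95.9%, and at 55.1% and 69.1% after thinning. The thinned share also rose in cDC1 (53.7% and 67%), macrophages (56.4% and 70%) and type 2 dendritic cells (61.1% and 71.5%). The part of free RNA in the higher cDC1 values was not tested. Summed B cell markers per member averaged 10.6 UMIs in NW (1 to 417) and 18.3 in ABX (0 to 4833), where Cd79a was limited by the selection. Ighg3 had 306 UMIs in NW and 42 in ABX (-2.29) and Iglc3 had 245 and 56 (-1.56).

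Among the 10 lowest were genes of macrophages and type 2 dendritic cells: Retnla (3997 and 1175 UMIs, -1.20), Cd209f (191 and 48, -1.42) and Cd209a (255 and 67, -1.36). Retnla stood at 3.5 and 1.41 UMIs per cDC1, 1.99 and 0.939 per T cell and 68.3 and 31.2 per macrophage, so it was lower in ABX in all of these. Of the macrophage list, 13 of 15 genes had a UMI in at least 10% of NW members and 12 in ABX, its sum averaged 27.1 UMIs per member in NW (1 to 235) and 21.4 in ABX (0 to 99), and 6 of 13 genes were lower with a median of -0.43. The 6 were C1qa and C1qb, which the selection limited, and Mrc1, Lyve1, Pf4 and Folr2. Of the type 2 dendritic cell list, averaging 12.8 (0 to 133) and 9.5 (0 to 57), 4 of 11 were lower with a median of -0.41. The list of monocyte markers had 3 of 6 lower, that of mature dendritic cells 1 of 6 (Ccl17), and that of B cells 2 of 2 higher (Ighm and Igkc). Beside these lists, 0.985% of all genes were lower and 0.412% higher. Ighm ran from 0.09 to 1.02 over 17 alternatives and passed the fold in 12. Of 4 plasmacytoid, 4 NK and ILC, 2 T cell and 2 endothelial genes 0 passed the fold, and no neutrophil, fibroblast or adipocyte gene had enough UMIs. T cell markers, of which Cd3e and Cd3d are 0 by the selection, averaged 0.798 and 0.878 UMIs, and neutrophil markers 0.21 and 0.24. The part of free RNA and of mixed cells in these ratios was not tested.

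The remaining genes of the 10 highest were Sparc (87 and 135 UMIs, 1.20), an extracellular matrix protein of stromal cells, Tespa1 (109 and 141, 0.94), a signalling protein of thymocytes, Ica1l (88 and 112, 0.92), the ribosomal pseudogene Rpl7a-ps5 (217 and 274, 0.91) and Pclaf (322 and 406, 0.90), a partner of the replication clamp. Summed fibroblast and mesothelial markers also differed, with 67 UMIs in NW and 264 in ABX over all cDC1 (log2 ratio 2.55), of which the highest cell held 5 and 92, and they were higher in ABX in macrophages (2.39) and type 2 dendritic cells (1.58) and lower in B cells (-1.43). Their part in the value of Sparc was not tested. Reads of Rpl7a-ps5 could come from its parent gene. The remaining genes of the 10 lowest were Emp1 (174 and 34, -1.79), Ctsd (275 and 81, -1.19), a lysosomal protease, Cybb, Nr4a2 and Il1b. Ctsd lay below the level of T cells, with 0.241 and 0.0971 UMIs per cDC1 and 0.551 and 0.487 per T cell. Macrophages held 3.87 and 2.34. Emp1 stood at 0.152 and 0.0408 per cDC1, 0.129 and 0.0903 per T cell and 1.16 and 0.462 per macrophage. Over the alternatives Ctsd ran from -1.83 to -0.09 and Emp1 from -2.44 to -0.35. Actn1, an actin cross-linker with more UMIs than these, was at 1374 and 1488 UMIs (0.69, interval 0.58 to 0.79), with 1.2 and 1.78 UMIs per cDC1 against 0.246 and 0.351 per T cell; it was chosen after its values were seen.

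At the surface, antibody counts of the libraries overlapped. CD44, the antibody with the highest counts on cDC1, had a median of 230 UMIs per member in NW (quartiles 159 and 328) and 217 in ABX (148 and 307), against 179 and 185 on type 2 dendritic cells and 59 and 54 on macrophages. The other 9 antibodies had medians of 2 to 22 UMIs per member. Those against T and NK cell proteins, such as TCR-beta at 14 and 13 UMIs and NK-1.1 at 22 and 17, were mostly a little lower in ABX and give the level of unspecific signal on cDC1.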

How the data were processed

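CD45+ cells of VAT were profiled with BD Rhapsody and antibody tags. Per the submitters' notes the authors used the BD WTA Rhapsody Analysis Pipeline 1.8 on GRCm38, R 3.6.0 and Seurat 3.0.1. They deposited 1 table per library of raw UMI counts per cell for genes and 10 antibodies. 0 columns of per-sample values were left unused. Genes absent from the file of 1 library counted as 0 there.

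The members, gene lists and comparisons were chosen with earlier results of these data known. UMIs were summed over members per library, scaled to CPM, and ratios were given exact conditional binomial intervals. Shares have exact (Clopper-Pearson) intervals. With 1 library per condition no test was made, and a gene was called past 1.5-fold at 200 or more UMIs. Named genes were those of the lists, the 10 highest and 10 lowest called ratios, and the 20 genes highest against type 2 dendritic cells. Others were chosen after their values were seen. Type 2 dendritic cells had at least 2 Cd209a UMIs, macrophages at least 10 C1q UMIs, B cells at least 2 of Cd79a and T cells at least 2 of Cd3e and Cd3d. Macrophages, B cells and T cells had 0 UMIs of Xcr1 and Clec9a and type 2 dendritic cells at most 1, and B, T and type 2 dendritic cells had fewer than 10 C1q UMIs. Doublets were kept. The calculations were tested on simulated data. Python 3.11.15, numpy 2.4.6, scipy 1.17.1, scanpy 1.11.5 and matplotlib 3.10.9 were used. Results for some genes are left out.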

Additional observations from a re-analysis of the deposited data

How the results depend on the processing

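No paired analysis was possible because each condition had 1 library, so that fewer than 2 replicate numbers could be shared; for the same reason no replicate could be left out. The log10 ratio of the cDC1 share among cells, ABX over NW, was -0.145. It turned to 0.0241 with fewer than 4 C1q UMIs and was -0.0372 among dendritic cells and macrophages, a denominator chosen after seeing the data. Its other values ran from -0.109 to -0.159. Among dendritic cells it was 0.0198, then 0.0427 with the stricter C1q limit, 0.0425 with none and 0.000314 with looser limits on the other dendritic cells. The 31 higher genes became 84 with 1 UMI of Xcr1 and Clec9a, 259 at 50 UMIs per gene, 8 at 500 and 5 at 2-fold. The 74 lower genes became 39 with fewer than 4 C1q UMIs, 136 with no C1q limit, 247 at 50 UMIs per gene, 29 at 500 and 15 at 2-fold. Added after seeing the data, leaving out each gene's 10 richest cells per library gave 157, and leaving out genes near free RNA gave 45. Of the 31 genes, 6 were among the 40 called with fewer than 4 C1q UMIs. List medians that moved were those of interferon-stimulated genes (0.09 as a mean over cells), macrophage markers (-0.75 with no C1q limit), plasmacytoid markers (-0.51 with fewer than 4 C1q UMIs) and cell cycle genes (0.44 with fewer than 4 C1q UMIs, -0.19 without cells above the 98th percentile of UMIs, -0.02 as a mean over cells, -0.10 without dividing members). NK and ILC markers gave 0.51 with 1 UMI of Xcr1 and Clec9a, -0.15 at 10% mitochondrial UMIs, -0.17 with free RNA subtracted and -0.20 without the 10 richest cells. Lpl reversed to 2.0 and Ly6c2 to 0.28 with 1 UMI of Xcr1 and Clec9a, and Ly6c2 to 0.07 without the 10 richest cells. The cause was not tested. Over 17 alternatives Nr4a1 stayed between -1.10 and -0.89, Nr4a2 between -1.49 and -1.05 and Il1b between -1.51 and -0.81, all past the fold, while Cxcl9 ran from 0.48 to 1.85 and passed it in 16 and Igkc from 0.45 to 1.10 and passed it in 13. Scrublet marked 2.94% of NW but only 0.0865% of ABX cells, under the 0.5% below which such a call is not relied on here. Whether the low ABX value reflects the tool or the cells was not tested, and doublets were kept.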
